A study of Mus musculus with 6 samples.

Results

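Expression of 8 genes of the sterol pathway, Hmgcs1, Idi1, Fdps, Fdft1, Sqle, Lss, Cyp51 and Dhcr7, was examined in mouse liver RNA-seq. They were chosen as enzyme genes of cholesterol synthesis under the control of the transcription factor SREBP2, and they make up 8 of the 24411 gene symbols in the table of estimated counts. All 8 passed the filter on low counts, which left 5945 genes to be tested. The study sequenced liver RNA, depleted of ribosomal RNA, from 3 p62+/+ and 3 p62S351E/+ mice, all at postnatal day 19. The p62S351E/+ mice were heterozygous for a knock-in of Sqstm1, the gene of the autophagy receptor p62, in which Ser351 has been exchanged for Glu to mimic its phosphorylation. The p62+/+ mice carried no such allele, and the labels name no treatment. The knock-in was made by prime editing in RENKA4 embryonic stem cells, derived from C57BL/6N, and was passed through the germline by a single male chimera whose sperm was used for in vitro fertilization. The allele is therefore present in every tissue and stands for 1 founder. Labels and methods gave neither the sex of these mice nor a sequencing batch.

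Cells make cholesterol from acetyl-CoA through mevalonate, isoprenoid diphosphates, squalene and lanosterol. When sterol in the endoplasmic reticulum is low, SCAP carries SREBP2 to the Golgi, where it is cut, and the released part enters the nucleus and switches on the genes of sterol synthesis and LDL uptake. When sterol is plentiful, INSIG proteins hold SCAP back, and oxysterols activate LXR, which raises genes of sterol efflux. The liver both makes cholesterol and clears LDL from the blood. Myelinating glia of the young brain also make large amounts of cholesterol.

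SREBP2 acts through sterol elements in the promoters of its targets, beside binding sites of NF-Y (CCAAT boxes) and SP1 (GC boxes). RefSeq promoter windows (GRCm38.p6) were matched by symbol for 5 of the 8 genes (7 windows; not Fdps, Fdft1 and Sqle). Here 3 promoters are printed to show a gene that lay lower in every p62S351E/+ mouse (Hmgcs1), the gene whose highest and lowest value in these mice differed by the largest fold (Cyp51) and the gene that was not lower on average (Lss). Each is given 5′ to 3′ on the gene's own strand and ends just before the first exon base of the gene in RefSeq or GENCODE, whichever lies further upstream, with the motifs TCACNCCAC (a sterol element), CCAAT and GGGCGG in capitals wherever they stood on either strand. Hmgcs1 is shown at chr13:119690101-119690350 (plus strand), Cyp51 at chr5:4104747-4104947 (minus strand) and Lss at chr10:76531355-76531564 (plus strand).
Hmgcs1: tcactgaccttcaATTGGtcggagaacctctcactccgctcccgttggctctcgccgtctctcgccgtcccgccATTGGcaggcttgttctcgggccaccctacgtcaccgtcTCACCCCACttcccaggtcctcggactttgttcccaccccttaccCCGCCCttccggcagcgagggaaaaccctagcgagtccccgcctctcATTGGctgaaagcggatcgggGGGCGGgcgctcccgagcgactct
Cyp51: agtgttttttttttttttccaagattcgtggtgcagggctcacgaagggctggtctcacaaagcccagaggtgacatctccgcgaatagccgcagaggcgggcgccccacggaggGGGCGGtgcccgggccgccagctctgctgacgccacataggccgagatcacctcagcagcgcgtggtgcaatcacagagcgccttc
Lss: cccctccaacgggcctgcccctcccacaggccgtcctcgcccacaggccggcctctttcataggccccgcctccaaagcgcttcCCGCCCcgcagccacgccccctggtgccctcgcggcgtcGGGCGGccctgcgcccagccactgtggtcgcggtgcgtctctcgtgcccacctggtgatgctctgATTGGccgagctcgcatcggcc
The last 49 bases of the Cyp51 window and 40 of the Lss window are not shown, because they lie in an annotated exon, and the only CCAAT box of the Cyp51 window, 29 bases upstream of its RefSeq start, is among them. The Hmgcs1 window held 1 sterol element of this form, starting 137 bases upstream of its start site, with 3 CCAAT boxes and 2 GC boxes around it. TCACNCCAC stood in 1 of the 7 member windows, several of which belong to Dhcr7. It stood in 346 of all 32851 windows of 250 bases, or 1.05%. Other forms of the sterol element were not searched for, so a window without these letters may still hold one. CCAAT stood in 5 of the 7 windows against 33.8% of all windows, and GGGCGG in 6 of the 7 against 32.7%. A match of letters is a description of the sequence and was not tested for binding.

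The libraries were uneven in ways that touch these genes. Estimated counts summed to between 8696712 and 10341622 per mouse, but outside Rn45s, Lars2 and Mir6236 they summed to 297320, 299487 and 271473 in the p62+/+ mice against 134911, 231631 and 315436 in p62S351E/+ mice 1, 2 and 3. The 10 hepatocyte markers, among them Alb and Apoa1, were detected in all 6 libraries. Their summed normalized counts were 12820 to 13813 in p62+/+ mice against 19079, 29557 and 13943 in p62S351E/+ mice 1, 2 and 3. Alb alone gave 6236, 5728 and 6452 of these against 9713, 16390 and 6542. Of the 10 markers, 3 (Alb, Cps1 and Serpinc1) were higher in every p62S351E/+ mouse than in every p62+/+ mouse, beside 12.0% of all genes tested. Serpinc1 was barely so, with 400.5 in mouse 3 against at most 398.2 in p62+/+ mice. Apoa1 lay below the p62+/+ range in mice 1 and 3 and above it in mouse 2. Normalized counts are estimated counts divided by the library size after TMM scaling, set relative to the geometric mean of the 6 sizes. The 10 markers of neurons and glia, which are no liver transcripts apart from Slc1a2 of pericentral hepatocytes, summed to 1196, 1323 and 1223 normalized counts in p62+/+ mice, to 36.2 and 37.8 in p62S351E/+ mice 1 and 2, and to 1231 in p62S351E/+ mouse 3. Snap25, Stmn2, Camk2a, Gfap and Mog were among the markers at 0 in both p62S351E/+ mice 1 and 2 (4 and 3 of the 5 neuron markers, and 3 of the 5 glia markers in each), and 17 of the 19 and 26 of the 30 raw counts left there were of Slc1a2. Summed Kupffer cell markers were at 36.5 to 44.9 normalized counts in p62+/+ mice and at 58.0 to 62.8 in p62S351E/+ mice, but overlapped without Marco (35.7 to 42.3 and 40.0 to 45.4). Of these markers, Clec4f was lower in every p62S351E/+ mouse than in every p62+/+ mouse, and Cd5l and Marco were higher. Of all genes tested, 14.7% were lower and 12.0% higher in that way. Leukocyte markers were at 4.32 to 7.76 and at 11.3 to 17.1, from 5 to 10 and 9 to 22 raw counts, mostly of Ptprc. The summed markers of sinusoidal endothelium, stellate cells and bile duct overlapped. Erythroid markers overlapped through p62S351E/+ mouse 1 only, with 75.8 to 166 normalized counts in p62+/+ mice against 109, 21.4 and 6.97. Hba-a1 was at 0 in p62S351E/+ mice 2 and 3. Xist, transcribed from the inactive X of females, had 56.8, 1168 and 925 normalized counts in p62+/+ mice against 1.90, 0 and 1191 in p62S351E/+ mice. The p62S351E/+ mouse 3 therefore resembled all p62+/+ libraries in brain markers and 2 of the 3 in Xist, and each main result is also given with this mouse left out and with it alone. In whole liver, fewer cells of a type and less RNA per cell cannot be told apart. Sqstm1 itself had 77.8, 73.0 and 86.4 normalized counts in p62+/+ mice against 104.7, 97.0 and 89.9 in p62S351E/+ mice, and since the knock-in changes a codon, this level does not check the genotype.

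**Figure D1:**
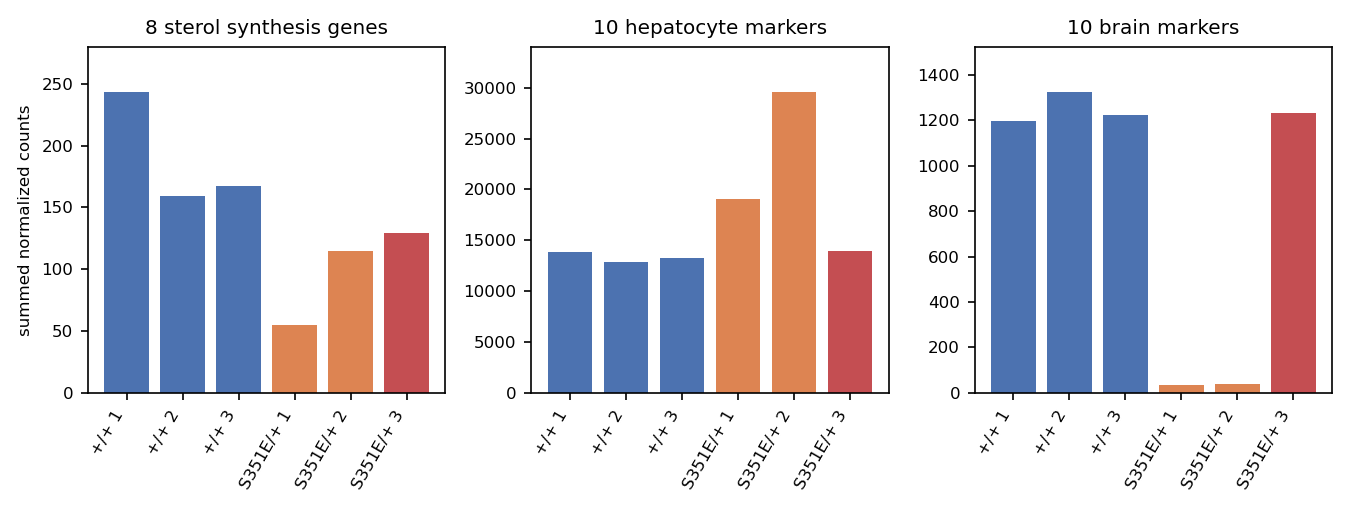
Summed normalized counts (y axes, each from 0) in the 6 liver libraries (x axis) of the 8 sterol synthesis genes, 10 hepatocyte markers and 10 brain markers. Blue bars are p62+/+ mice, orange bars p62S351E/+ mice 1 and 2, and the red bar p62S351E/+ mouse 3; the sterol sum was lowest in p62S351E/+ mouse 1 at 54.7, and brain markers were near 37 in mice 1 and 2 against 1196 or more in the other 4 libraries.

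The 8 genes together gave 243, 159 and 167 normalized counts in the p62+/+ mice against 54.7, 115 and 129 in p62S351E/+ mice 1, 2 and 3, so that the sums did not overlap. They rested on few reads, 303, 205 and 193 raw counts in the p62+/+ mice against 28.7, 91.1 and 167 in the p62S351E/+ mice. None of the 8 was called higher or lower by edgeR's quasi-likelihood test with a Benjamini-Hochberg adjusted p under 0.05 and a log2 fold change beyond 1 in either direction, and the legacy form of the edgeR test also gave 0, while limma-voom called 1 lower (Hmgcs1). DESeq2 gave an adjusted p for 1 of the 8 only, Hmgcs1 (0.152), and its filter left the other 7 without one. Of all genes tested, 5 of 5945 (0.0841%) were called lower and 50 (0.841%) higher. Of the 8, 7 had a log2 fold change below 0, with a median of -0.73 over the 8 and of -0.03 over all genes tested. At an unadjusted p below 0.05 there were 2 lower members, Hmgcs1 and Fdps, and 0 higher, beside 330 lower and 536 higher genes in all. These same 2 were the members lower in every p62S351E/+ mouse than in every p62+/+ mouse, 2 of 8, where 14.7% of all genes tested were lower and 12.0% higher in that way, so that the members stood close to the background. An exact permutation test of a single gene with 3 against 3 mice cannot go below p = 0.1. The p-values of the fit set a difference against the spread between these mice, which edgeR estimates with the help of the other genes.

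**Figure D2:**
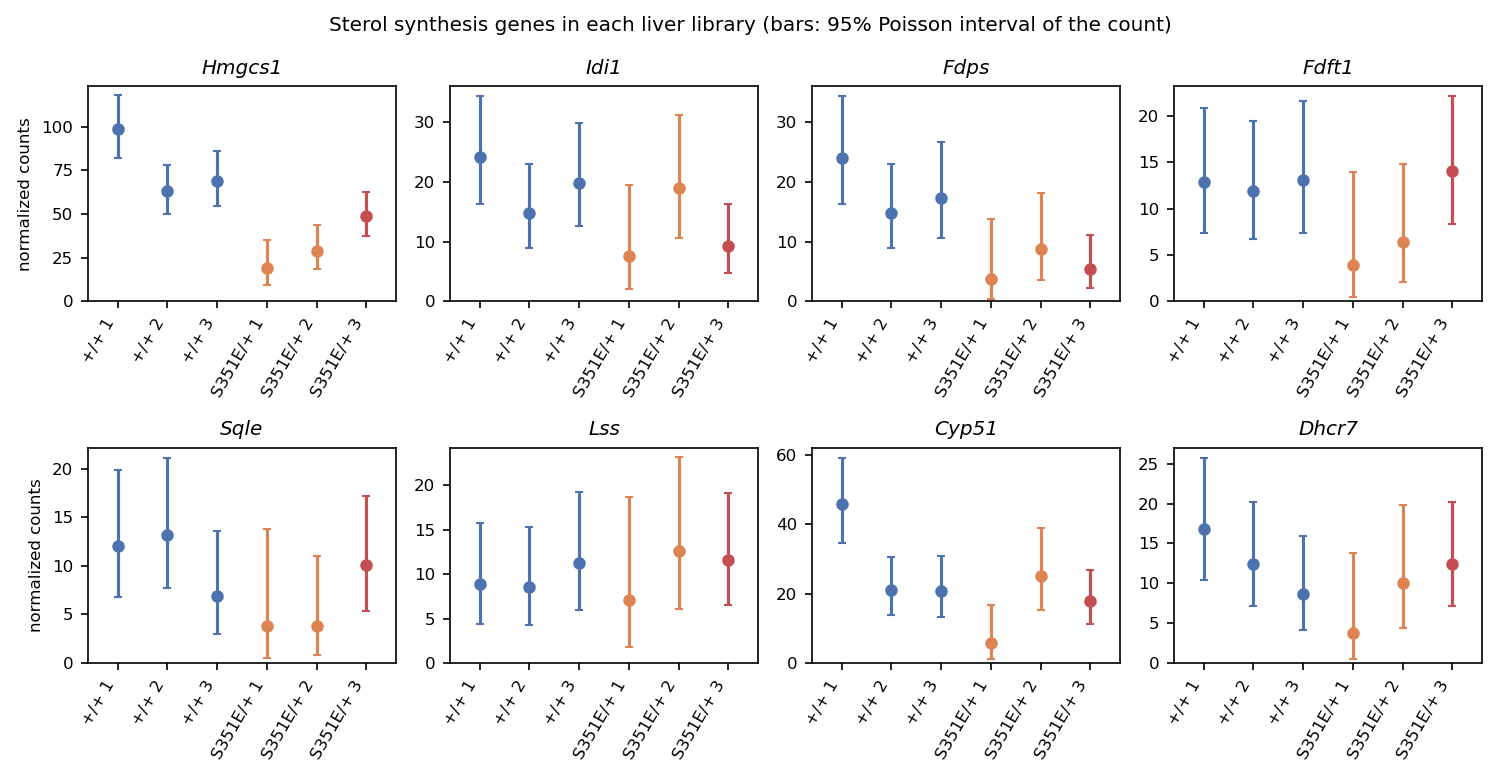
Normalized counts (y axes) of each sterol synthesis gene in the 6 libraries (x axes), with bars for the 95% Poisson interval of the count, which covers counting error only. Blue points are p62+/+ mice, orange points p62S351E/+ mice 1 and 2, and red points p62S351E/+ mouse 3; only Hmgcs1 and Fdps have all 3 p62S351E/+ points below all 3 p62+/+ points.

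Per kilobase of annotated exon, Hmgcs1 was the most abundant of the 8 in the p62+/+ libraries, at 22.1 normalized counts per kb (18.1 to 28.3 over the mice). These libraries also held brain transcripts, so the order is not that of liver alone. Fdps followed at 12.9 per kb (10.2 to 16.6), below the lowest Hmgcs1 value. Cyp51 at 7.41 per kb (5.27 to 11.6) overlapped Fdps above it and Idi1 below it, the latter at 6.46 per kb (4.87 to 7.95). Sqle at 3.88, Dhcr7 at 3.82 and Fdft1 at 3.41 per kb overlapped each other and their order is not resolved. Lss was lowest at 2.04 per kb (1.83 to 2.41). In p62S351E/+ mice 1 and 2, almost without brain markers, Hmgcs1 was also the highest, at 5.47 and 8.32 per kb. Lss was not the lowest there, at 1.51 and 2.70 per kb against 1.38 and 1.37 for Sqle.

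Hmgcs1, on the plus strand of chromosome 13 from 119690351 to 119708260 in GRCm38 (the build of mm10), encodes the cytosolic HMG-CoA synthase of the mevalonate pathway. It had 123, 81 and 80 raw counts in p62+/+ mice against 10, 23 and 63 in p62S351E/+ mice, which came to 98.7, 62.9 and 69.1 normalized counts against 19.04, 29.0 and 48.8. Every p62S351E/+ mouse lay below every p62+/+ mouse, with mouse 3 the nearest to them. The means were 76.9 ± 19.1 and 32.3 ± 15.2 normalized counts (SD, n = 3 each), and the log2 fold change was -1.23 (standard error, SE, 0.35, 95% interval -2.03 to -0.43), with an adjusted p of 0.188 from edgeR's quasi-likelihood test. With p62S351E/+ mouse 3 left out it was -1.66 (SE 0.30, adjusted p = 0.00193 from the same edgeR test), a comparison in which 15.3% of all genes tested and 2 of the 8 members (Hmgcs1 and Fdps) were called lower. For mouse 3 alone against the same 3 p62+/+ mice, with its spread assumed to be theirs, it was -0.64 (SE 0.29, adjusted p = 0.463 by edgeR).

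Idi1, on the plus strand of chromosome 13 from 8885606 to 8892396, encodes the isomerase that interconverts the isoprenoid units isopentenyl and dimethylallyl diphosphate. Its normalized counts were 24.1, 14.7 and 19.9 in p62+/+ mice against 7.62, 18.9 and 9.30 in p62S351E/+ mice, from 30, 19 and 23 against 4, 15 and 12 raw counts. Mice 1 and 3 lay below the p62+/+ range and mouse 2 within it. The means were 19.6 ± 4.67 and 11.9 ± 6.09 (SD, n = 3 each), and the log2 fold change came to -0.70 (SE 0.40, 95% interval -1.60 to 0.21, adjusted p = 0.440 by edgeR's quasi-likelihood test). For Idi1 mouse 3 alone gave -1.05 (adjusted p = 0.431 by edgeR), and mice 1 and 2 gave -0.51 (adjusted p = 0.428 by edgeR).

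Fdps, on the minus strand of chromosome 3 from 89093588 to 89101967, encodes farnesyl diphosphate synthase, at the branch point of sterols, dolichol and protein prenylation. It had 30, 19 and 20 raw counts in p62+/+ mice against 2, 7 and 7 in p62S351E/+ mice, or 24.1, 14.7 and 17.3 against 3.81, 8.82 and 5.42 normalized counts. The groups did not overlap, and mouse 3 was as low as mice 1 and 2. The means were 18.7 ± 4.82 and 6.02 ± 2.56 normalized counts (SD, n = 3 each), and the log2 fold change was -1.60 (SE 0.39, 95% interval -2.49 to -0.70), the lowest of the 8, with an adjusted p of 0.123 from edgeR's quasi-likelihood test. Without mouse 3 it was -1.48 (SE 0.45, adjusted p = 0.0325 by edgeR), and for mouse 3 alone -1.76 (SE 0.51, adjusted p = 0.0913 by edgeR). Both fits share the same 3 p62+/+ mice, and the part of brain transcripts in the Fdps difference was not tested. The 2 raw counts of mouse 1 have a 95% Poisson interval of 0.24 to 7.22, or up to 13.8 normalized counts.

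Fdft1, on the minus strand of chromosome 14 from 63145150 to 63181687, encodes squalene synthase, the first step committed to sterols. It had 12.8, 11.9 and 13.1 normalized counts in p62+/+ mice against 3.90, 6.36 and 14.0 in p62S351E/+ mice, from 16, 15.3 and 15.2 against 2.05, 5.05 and 18.1 raw counts. Mice 1 and 2 lay below the narrow p62+/+ range and mouse 3 above it. The means were 12.6 ± 0.67 and 8.10 ± 5.28 (SD, n = 3 each), and the log2 fold change came to -0.54 (SE 0.45, 95% interval -1.58 to 0.50, adjusted p = 0.581 by edgeR's quasi-likelihood test). Its log2 fold change was -1.24 without mouse 3 (adjusted p = 0.0696 by edgeR) and 0.17 for mouse 3 alone (adjusted p = 0.944 by edgeR).

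Sqle, on the plus strand of chromosome 15 from 59315092 to 59331193, encodes squalene epoxidase, the first oxygen-requiring step of the pathway. Its normalized counts were 12.0, 13.2 and 6.91 in p62+/+ mice against 3.81, 3.78 and 10.1 in p62S351E/+ mice, from 15, 17 and 8 against 2, 3 and 13 raw counts. As for Fdft1, mice 1 and 2 were below every p62+/+ mouse and mouse 3 was not. The means were 10.7 ± 3.35 and 5.89 ± 3.62 (SD, n = 3 each), and the log2 fold change came to -0.76 (SE 0.52, 95% interval -1.95 to 0.42, adjusted p = 0.507 by edgeR's quasi-likelihood test). It was -1.47 without mouse 3 (adjusted p = 0.0704 by edgeR) and -0.09 for mouse 3 alone (adjusted p = 0.975 by edgeR).

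Lss, on the plus strand of chromosome 10 from 76531565 to 76557139, encodes lanosterol synthase, which closes the sterol rings. It had 8.83, 8.54 and 11.2 normalized counts in p62+/+ mice against 7.03, 12.6 and 11.6 in p62S351E/+ mice, from 11, 11 and 13 against 3.69, 10 and 15 raw counts. The groups overlapped, with mouse 1 just below and mice 2 and 3 just above the p62+/+ range. The log2 fold change was 0.18 (SE 0.36, 95% interval -0.65 to 1.01, adjusted p = 0.829 by edgeR's quasi-likelihood test), an interval that spans changes in both directions. It was 0.12 without mouse 3 and 0.30 for mouse 3 alone. Its sign turned negative under 2 other scalings, with -0.42 when libraries were scaled by total counts alone and -0.35 when they were scaled by the hepatocyte markers, which moved the median of all genes tested to -0.68 and -0.55.

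Cyp51, on the minus strand of chromosome 5 from 4080674 to 4104697, encodes lanosterol 14-alpha-demethylase. It had 45.7, 21.0 and 20.7 normalized counts in p62+/+ mice against 5.71, 25.2 and 17.8 in p62S351E/+ mice, from 57, 27 and 24 against 3, 20 and 23 raw counts. Mouse 1 lay far below all p62+/+ mice, mouse 3 just below them and mouse 2 among them. The means were 29.1 ± 14.4 and 16.2 ± 9.84 (SD, n = 3 each), and the log2 fold change came to -0.80 (SE 0.51, 95% interval -1.99 to 0.38, adjusted p = 0.485 by edgeR's quasi-likelihood test). It stayed close to that value both without mouse 3, at -0.84 (adjusted p = 0.302 by edgeR), and for mouse 3 alone, at -0.70 (adjusted p = 0.728 by edgeR).

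Dhcr7, on the plus strand of chromosome 7 from 143823167 to 143848410, encodes 7-dehydrocholesterol reductase, which makes cholesterol in the last step of one branch. Its normalized counts were 16.9, 12.4 and 8.64 in p62+/+ mice against 3.81, 10.1 and 12.4 in p62S351E/+ mice, from 21, 16 and 10 against 2, 8 and 16 raw counts. Only mouse 1 lay below the p62+/+ range. The means were 12.6 ± 4.11 and 8.76 ± 4.44 (SD, n = 3 each), and the log2 fold change came to -0.46 (SE 0.45, 95% interval -1.50 to 0.58, adjusted p = 0.628 by edgeR's quasi-likelihood test). Without mouse 3 it was -0.78 (adjusted p = 0.295 by edgeR) and for mouse 3 alone -0.02 (adjusted p = 0.990 by edgeR).

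Some of these counts may be shared with other genes. In the GENCODE annotation the exons of Fdft1 overlap those of Ctsb, the cathepsin B gene on the other strand, by 774 bases. The estimated counts of both added up to a whole number, within 0.005, in all 6 libraries (173, 208 and 181 in p62+/+ mice against 55, 122 and 208 in p62S351E/+ mice), while Fdft1 alone was not whole in 5 of them. Ctsb had 126, 150 and 143 normalized counts in p62+/+ mice against 101, 147 and 147 in p62S351E/+ mice, far above Fdft1 in each library, so the Fdft1 values are uncertain. Exons of Cyp51 overlap those of Akap9 by 166 bases, and those of Lss overlap 4930483K19Rik by 381 bases. Hmgcs1, Idi1 and Fdps overlap other annotated genes by 557, 323 and 1124 bases, and Sqle and Dhcr7 overlap none. The library kit and the settings of the counting were not given with a strand.

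Set against the mean of the p62+/+ mice, the 8 genes had a median log2 ratio of -1.71 in p62S351E/+ mouse 1, of -0.66 in mouse 2 and of -0.37 in mouse 3, where all genes tested had -0.12, -0.09 and 0.00073. Mouse 1 was below every p62+/+ mouse for 8 of the 8 genes, where 42.7% of all genes tested were. Mouse 2 was below them for 4 (Hmgcs1, Fdps, Fdft1 and Sqle), within their range for 3 and above for 1, close to the 41.2% of all genes below. Mouse 3 was below them for 4 (Hmgcs1, Idi1, Fdps and Cyp51), within for 2 and above for 2, beside 29.6% of all genes below. Mouse 1 also had the fewest counts outside the 3 abundant genes, and all 8 members had at most 20 raw counts there. The part of brain transcripts in the lower counts of mice 1 and 2 was not tested. Mouse 3 held brain transcripts, and its 4 lower genes rested on 63 (Hmgcs1), 12 (Idi1), 7 (Fdps) and 23 (Cyp51) raw counts.

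**Figure D3:**
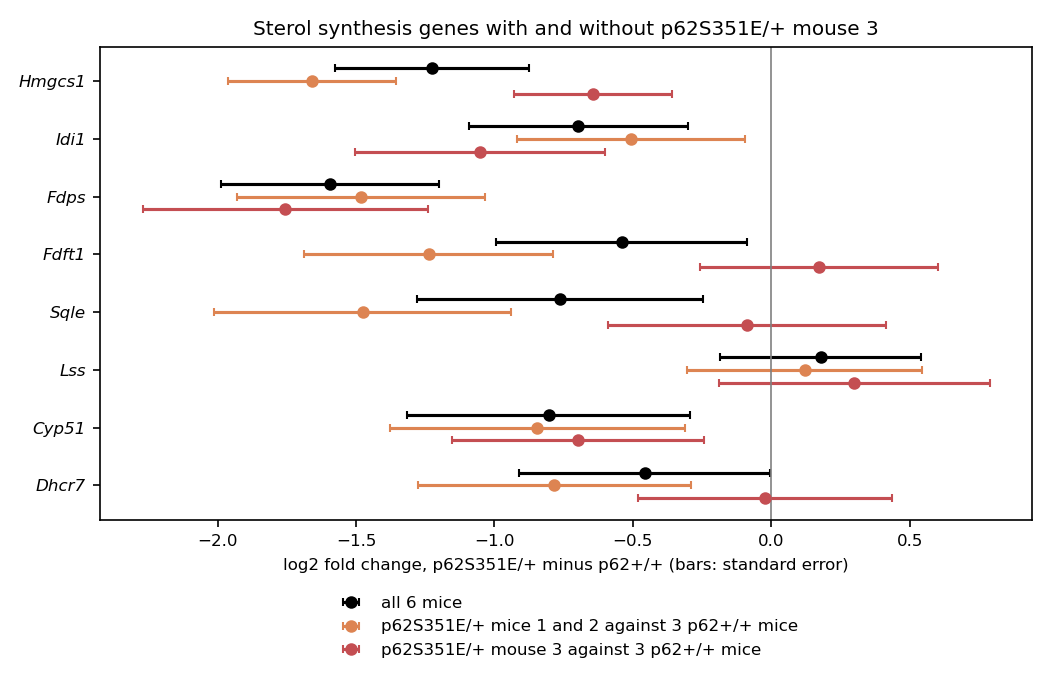
Log2 fold change of each sterol synthesis gene (x axis, p62S351E/+ minus p62+/+; bars are standard errors) with all 6 mice (black), with p62S351E/+ mouse 3 left out (orange) and for mouse 3 alone against the 3 p62+/+ mice (red). The 3 sets share the same p62+/+ mice; Fdps stays between -1.48 and -1.76, while Fdft1 and Sqle lie at -1.24 and -1.47 without mouse 3 and at 0.17 and -0.09 for mouse 3 alone.

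Among 12 other genes of synthesis, 4 were tested and none was called in either direction, with a median log2 fold change of -0.28 and no unadjusted p below 0.05. Sc5d, the lathosterol oxidase gene, had a log2 fold change of -0.47 with an SE of 0.24 (adjusted p = 0.414 by edgeR). Ebp, the sterol isomerase gene, had one of -0.50 with an SE of 0.50 (adjusted p = 0.630 by edgeR), and Msmo1, the C4-methylsterol oxidase gene, one of -0.09 with an SE of 0.53 (adjusted p = 0.944 by edgeR). Mvk, Pmvk, Mvd, Ggps1, Tm7sf2, Lbr, Nsdhl and Hsd17b7 were too low to be tested, as were Mbtps2 and Stard4 of the control and uptake genes.

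Of 12 genes of SREBP2 control and of LDL uptake and transport, 10 were tested and none was called, with 1 lower and 1 higher at an unadjusted p below 0.05 and a median of 0.03. Srebf2, which encodes SREBP2, had 33.7, 30.3 and 34.5 normalized counts in p62+/+ mice against 3.81, 15.1 and 22.5 in p62S351E/+ mice. All p62S351E/+ mice lay below the p62+/+ mice, mouse 1 with only 2 raw counts. Its log2 fold change was -1.18 (SE 0.46, 95% interval -2.24 to -0.12, adjusted p = 0.309 by edgeR's quasi-likelihood test) and -0.53 for mouse 3 alone. Without mouse 3 it was -1.70 (adjusted p = 0.0121 by edgeR), a comparison in which 15.3% of all genes tested were called lower. There, p62+/+ libraries with brain transcripts stood against p62S351E/+ libraries with almost none. The part of brain transcripts in the Srebf2 difference was not tested. Insig1, which retains SCAP and is itself an SREBP target, had 42.5, 28.7 and 32.8 normalized counts in p62+/+ mice against 45.7, 32.8 and 20.9 in p62S351E/+ mice, a log2 fold change of -0.09 with an SE of 0.32 (adjusted p = 0.912 by edgeR). The HDL receptor gene Scarb1 had a log2 fold change of 0.78 with an SE of 0.30 (adjusted p = 0.307 by edgeR), the lysosomal exporter gene Npc1 one of 0.01 and the endocytic receptor gene Lrp1 one of 0.11, both of the latter with unadjusted p above 0.05.

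All 9 genes of efflux and esterification were tested, and 2 of them, Abcg5 and Abcg8, were called higher. They encode both parts of the transporter that secretes sterols into bile, are targets of LXR and lie head to head on chromosome 17. Abcg5 had 20.1, 32.6 and 20.7 normalized counts in p62+/+ mice against 70.5, 70.6 and 71.3 in p62S351E/+ mice. Abcg8 had 18.5, 14.7 and 25.9 against 66.6, 64.3 and 55.8. For both, all 3 p62S351E/+ mice were far above all p62+/+ mice and close to one another, mouse 3 included. Abcg5 rose by a log2 fold change of 1.53 (SE 0.25, 95% interval 0.95 to 2.10, adjusted p = 0.0346) and Abcg8 by 1.65 (SE 0.26, 95% interval 1.05 to 2.25, adjusted p = 0.0312), both by edgeR's quasi-likelihood test. For mouse 3 alone the log2 fold changes were 1.54 and 1.52, with its spread assumed to be that of the p62+/+ mice. Without mouse 3 they were 1.52 and 1.73 (adjusted p = 0.00185 and 0.00101 by edgeR). That comparison called 333 of 6390 genes tested higher. Leaving out p62+/+ mouse 1, 2 or 3 or p62S351E/+ mouse 1 or 2 in turn ended both calls, with log2 fold changes of 1.41 to 1.80 for Abcg5 and 1.49 to 1.90 for Abcg8 and adjusted p of 0.0608 to 0.199 and 0.0597 to 0.185 by edgeR. Both calls also ended with Xist as a covariate (adjusted p = 0.0798 and 0.101 by edgeR), with libraries scaled by total counts (0.89 and 0.96 log2 units) and by hepatocyte markers (1.01 and 1.12 log2 units). The exons of the pair overlap by at most 82 bases. Abca1, which loads cholesterol onto apolipoprotein A-I and is also an LXR target, had a log2 fold change of 0.17 with an SE of 0.22 (adjusted p = 0.707 by edgeR), and Lcat, which esterifies cholesterol in plasma lipoproteins, one of 0.64 with an SE of 0.28 (adjusted p = 0.335 by edgeR). Over these 33 other pathway genes, 23 were tested, with 2 called higher, 0 called lower and a median of 0.05.

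**Figure D4:**
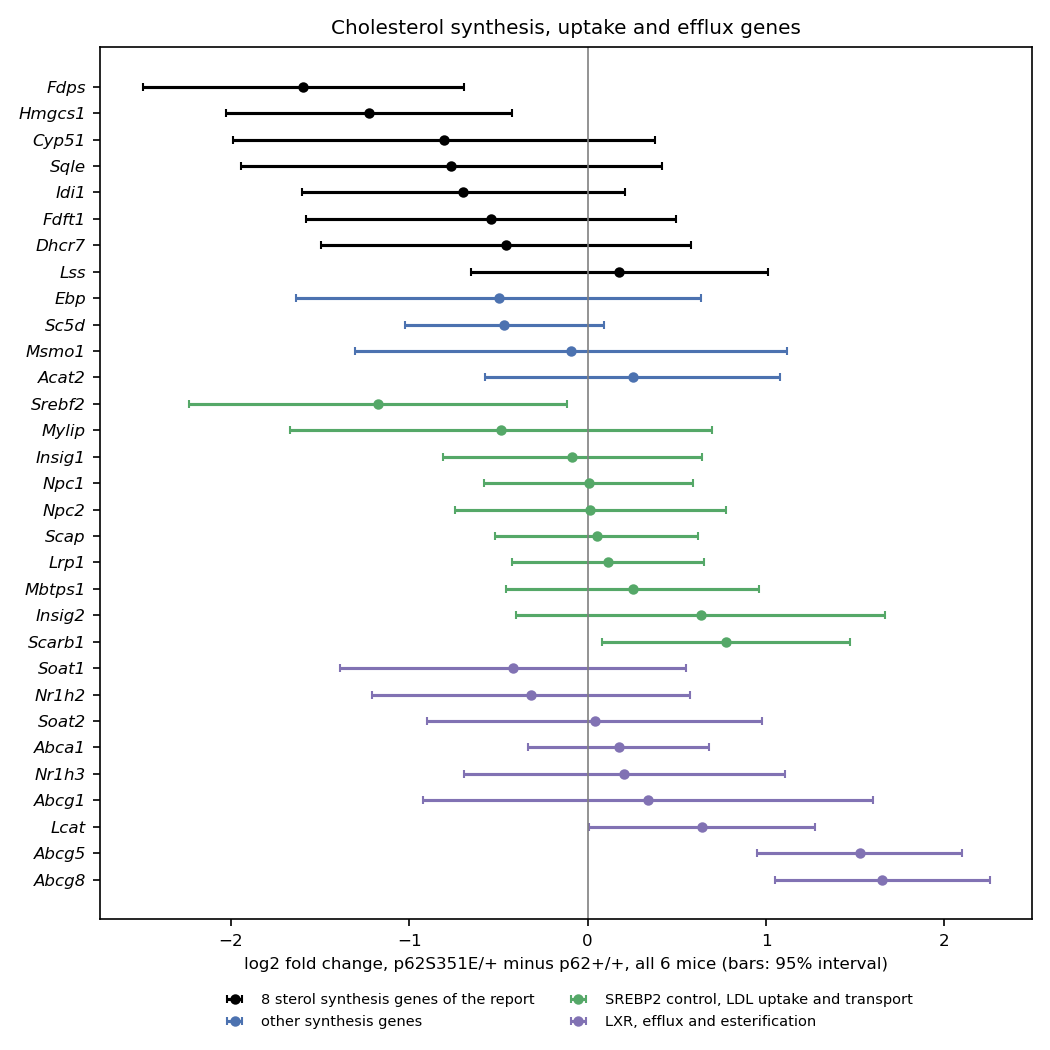
Log2 fold change (x axis, p62S351E/+ minus p62+/+, all 6 mice; bars are 95% intervals of edgeR's quasi-likelihood fit) of the 8 sterol synthesis genes (black) and of the other pathway genes tested (blue, synthesis; green, SREBP2 control and LDL uptake; purple, LXR, efflux and esterification). Intervals of Fdps, Hmgcs1 and Srebf2 lie below 0, those of Scarb1, Lcat, Abcg5 and Abcg8 lie above it, and those of the other genes include 0.

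The genes whose levels over the 6 libraries ran closest to the mean profile of the 8 were sought among 705 tested genes with a mean of at least 50 normalized counts, by the root mean square difference of centred log2 values. The 5 closest were Ahcyl1 (0.16), Trp53inp2 (0.18), Ptprd (0.24), Fasn (0.25) and Aldoa (0.27). The members themselves differed from their own mean by 0.23 (Dhcr7) to 0.52 (Lss). Ahcyl1, a regulator of IP3 receptors, had 79.4, 69.1 and 67.4 normalized counts in p62+/+ mice against 19.04, 42.8 and 53.5 in p62S351E/+ mice. Fasn, the fatty acid synthase gene and a lipogenic enzyme outside the sterol branch, had 179, 93.2 and 99.3 against 30.5, 69.3 and 65.9. All 5 were lowest in p62S351E/+ mouse 1, as was the mean profile that they were picked to match. Ahcyl1, Trp53inp2 and Fasn were lower in every p62S351E/+ mouse than in every p62+/+ mouse, while Ptprd and Aldoa were not. Of all genes tested, 14.7% were lower in that way. As these genes were picked for their likeness over these libraries, their differences between genotypes are given with no test.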

How the data were processed

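Liver RNA of 3 p62+/+ and 3 p62S351E/+ mice was depleted of ribosomal RNA and sequenced as 75-bp single-end reads. Per the labels, the authors used Trim Galore, STAR with mm10 and RSEM, and deposited expected counts (estimated counts) of 24411 gene symbols, without normalization. Versions and the gene annotation are not given in the sources used here. Each column matched 1 sample, and genotype and number came from the labels.

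The expected counts were rounded for testing. Genes were filtered by filterByExpr (minimum count of 10), scaled by TMM and tested with edgeR 4.0.16 in R 4.3.3 (quasi-likelihood, robust, legacy set to FALSE), adjusted by Benjamini-Hochberg over 5945 genes. Alternatives used limma 3.58.1 and DESeq2 1.42.0. Scripts were tested on simulated data. Summed counts lay between 8696712 and 10341622, most of them on Rn45s, Lars2 and Mir6236. Poisson intervals cover counting error only.

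Named genes were the 8 members, every other pathway gene called, the 3 most abundant of each pathway list, Srebf2 and Insig1, and the 5 genes most like the members. Some pathway genes are not reported here and were left out of the lists and their counts. Members and lists were chosen with earlier results of these data known. Exon lengths and overlaps came from GENCODE (GRCm38), and gene positions and promoters from RefSeq.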

Additional observations from a re-analysis of the deposited data

How the results depend on the processing

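The number of members called lower was 0, and became 1 with limma-voom (Hmgcs1, adjusted p = 0.0346) and 1 when every library had to hold 10 or more counts, which left 1 member to test (Hmgcs1, -1.41, adjusted p = 0.0187 by edgeR). Leaving out each mouse gave 0 to 2, the 2 being Hmgcs1 and Fdps without p62S351E/+ mouse 3, where 975 genes in all were called lower against 5. DESeq2 gave no adjusted p for 7 of the 8, and its 0 covers Hmgcs1 alone. Among members with an adjusted p, no alternative called one higher. The median of the members lay between -0.37 (p62S351E/+ mouse 3 alone) and -1.41 (the filter that left Hmgcs1), and was -1.04 without that mouse. Scaling by total counts alone moved the median of all genes to -0.68, that of the members to -1.32 and Lss to -0.42. Scaling by the 10 hepatocyte markers, chosen after seeing the data, gave -0.55, -1.25 and -0.35 for Lss. Scaling by the counts outside 3 genes gave -0.19 and -0.89. Fdft1 turned to 0.17 for mouse 3 alone. Apart from Lss and Fdft1, all members kept their sign in the alternatives in which they were tested.

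Of the other pathway genes, 2 (Abcg5 and Abcg8) were called higher. This became 1 with the counts outside 3 genes as library size, and 0 with total counts, with Xist as a covariate, with hepatocyte-marker scaling and with the replicate block. Leaving out a mouse gave 0 to 2, with 0 for each p62+/+ mouse and for p62S351E/+ mice 1 and 2. The number called lower was 0, and 0 to 1 with a mouse left out (Srebf2 without p62S351E/+ mouse 3). Over all genes, 50 higher and 5 lower calls became 18 and 1 with the block, 27 and 2 with Xist, 12 and 2 with total counts, 12 and 5 with hepatocyte markers, 131 and 12 with limma-voom, 57 and 11 with DESeq2, 60 and 8 with the legacy edgeR method, 79 and 10 with no filter, 70 and 29 with the stricter one, 72 and 23 for mouse 3 alone, and 16 to 333 higher and 1 to 975 lower with a mouse left out. The causes were not tested.

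Replicate numbers were used as a block only as an alternative, since same-numbered mice are different animals. Their deviations from the group means correlated by 0.071, -0.085 and 0.00035. With 3 mice per group these values cannot exclude a batch shared by number, which the labels do not give. The block changed no member's call, with a median of -0.77. Members with 2 to 20 counts per library limit what this depth can show.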
